A study of Rattus with 6 samples.

Results

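Lrrn4, Rd3 and Lor are 3 of the 12801 genes in an exon-level RNA sequencing table of RC-4B/C, a cell line from a rat pituitary adenoma, and 8 of its 118147 exons. The members were the rows whose gene name is Lrrn4, Rd3 or Lor, and these genes were chosen by their RPKM in these same 6 libraries, which was far lower with aspirin. Their difference between the groups is therefore given as a description, with no test. The study has 3 libraries labelled ASA (acetylsalicylic acid, aspirin, an inhibitor of the cyclooxygenases) and 3 labelled DMSO (dimethyl sulfoxide, the solvent control). All are polyadenylated RNA of the same line. The labels used here give no dose, duration or passage, and nothing in them ties a library to its own culture, so p-values measure only the spread between these libraries. A group of one cell line is a model of that line alone, and in bulk RNA fewer cells that carry a transcript cannot be told apart from less of it in each cell.

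The members come from unrelated families. Lrrn4 encodes a membrane protein with leucine-rich repeats outside the cell, of a family named for its expression in neurons, and it is also known as a marker of mesothelium. Rd3 encodes a small protein of photoreceptors that binds the retinal membrane guanylate cyclases, holds their activity down and is needed for them to reach the outer segment. Loss of it causes retinal degeneration. Lor encodes loricrin, the glycine-rich protein that transglutaminases cross-link into the cornified envelope of the epidermis. RefSeq lists the gene as Loricrin with Lor as a synonym. None of the 3 is a standard marker of a pituitary cell.

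Levels are RPKM, the reads of a gene per kilobase of its listed exons per 1000000 reads, so they can be compared between genes. Depth in the listed exons ran from 66492446 to 94486062 reads per library, with the lowest depth in ASA replicate 2. That library stood apart from the others, with 497 exons at 0 reads against 4 to 13 elsewhere. The differences of Lrrn4, Rd3 and Lor are therefore given with and without it. Of the other genes that turned on it, only some are named below. The cells carried the transcripts of the lactotroph lineage. Prl (prolactin) lay between 14037 and 62170 RPKM and its activator Pou1f1 between 584 and 804 over the 6 libraries, and 18 of 30 markers of pituitary secretory cells had rows. Gh1, Tshb, Lhb and Fshb, of the growth hormone, thyrotropin and gonadotropin cells, had no row in the table used here, while Cga, the alpha subunit that the glycoprotein hormones share, and Pomc, of the corticotrophs, had rows. Pomc was low, at 1.95 ± 0.893 RPKM with DMSO and 1.26 ± 0.308 with ASA (SD, n = 3). At a Benjamini-Hochberg adjusted p under 0.05, limma called 3 of the 18 lower with ASA and 0 higher, against 4.99% of all tested genes lower and 6.21% higher. Cga fell from 25.8 ± 2.33 to 2.86 ± 1.54 RPKM (SD, n = 3), 9.84-fold (adjusted p = 0.0137). Neurod4, a transcription factor of the pituitary lineages, fell 2.94-fold (adjusted p = 0.0155) and the prohormone convertase gene Pcsk2 2.35-fold (adjusted p = 0.0232). Their part in the levels of Lrrn4, Rd3 and Lor was not tested.

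Lrrn4 was the most abundant of the 3 in DMSO-treated cells. Its gene (ENSRNOG00000032989) spans 125523983 to 125533439 of chromosome 3, on the minus strand of Rnor_6.0, with all 4 exons of its model listed. It had 72.9, 73.2 and 140 RPKM in DMSO replicates 1, 2 and 3, and 11.04, 1.26 and 7.36 in ASA replicates 1, 2 and 3. Every ASA library lay below every DMSO library, and the lowest DMSO value was 6.60 times the highest ASA value. The means were 95.4 ± 38.6 and 6.56 ± 4.94 RPKM (SD, n = 3), a log2 difference of -4.23 between group means of log2(RPKM + 0.1), or 18.8-fold lower with ASA. In DMSO libraries its mean was above that of 85.0% of the 12502 genes tested (mean RPKM of 0.5 or more), and in ASA libraries above that of 23.6%. The size rested in part on single libraries, with 9.96-fold lower without ASA replicate 2 and 28.5-fold lower without ASA replicate 1.

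Rd3 was the least abundant of the 3. The gene (ENSRNOG00000050766) spans 110745574 to 110747803 of chromosome 13, on the plus strand of Rnor_6.0, with both exons of its model listed and 585 exon bases in all. It had 7.45, 17.2 and 11.4 RPKM in DMSO replicates 1, 2 and 3, from 412, 825 and 611 reads. In ASA replicates 1, 2 and 3 it had 1.41, 0.488 and 0.509 RPKM, from 76, 19 and 26 reads. The groups did not overlap, and ASA replicates 2 and 3 were alike within their exact 95% Poisson intervals (0.294 to 0.763 and 0.332 to 0.745), which cover counting error only. The interval of ASA replicate 1, from 1.11 to 1.77, lay above them and below every DMSO value. The means were 11.99 ± 4.88 RPKM with DMSO and 0.803 ± 0.527 with ASA (SD, n = 3), a log2 difference of -3.81, or 14.03-fold lower. Without ASA replicate 2 it was 11.9-fold lower. The added 0.1 weighs on values this low. With 0.01 added the log2 difference was -3.98 and with 1 added it was -2.82 (7.05-fold).

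Lor lay between the other two in the DMSO libraries and varied most among them. The gene (ENSRNOG00000059604) spans 191984773 to 191986170 of chromosome 2, on the minus strand of Rnor_6.0. It had 13.2, 66.0 and 27.0 RPKM in DMSO replicates 1, 2 and 3, and 4.17, 1.20 and 2.22 in ASA replicates 1, 2 and 3. The DMSO libraries thus differed among themselves by 5.01-fold, and only 80 of the 12502 genes (0.640%) had a range between DMSO libraries at least that wide. Even so the groups did not overlap, since the lowest DMSO value was 3.16 times the highest ASA value. The means were 35.4 ± 27.4 and 2.53 ± 1.51 RPKM (SD, n = 3), a log2 difference of -3.62, or 12.3-fold lower with ASA. Without DMSO replicate 2, the library with the highest Lor, it was 8.09-fold lower, and without ASA replicate 2 it was 9.14-fold lower.

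**Figure D1:**
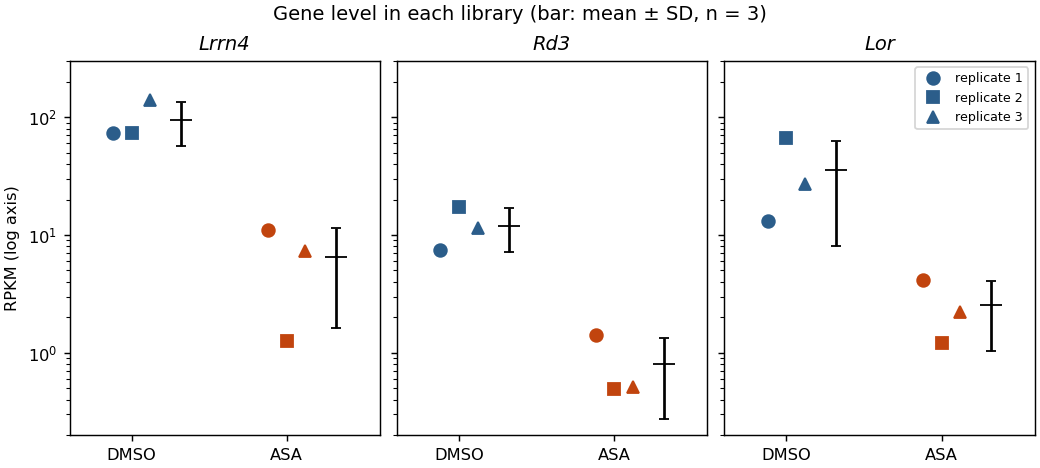
RPKM of Lrrn4, Rd3 and Lor on a log axis in each DMSO library (blue) and ASA library (orange), with marker shapes for replicates 1 to 3 and a black bar for the mean ± SD of 3 libraries. The lowest DMSO point is above the highest ASA point for each gene, by 6.60, 5.28 and 3.16 times, and ASA replicate 2 is the lowest point of each.

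In the ranking of all 12502 genes by log2 difference from the lowest, Lrrn4, Rd3 and Lor were 3rd, 8th and 11th. That ranking uses the low level with ASA for which they were chosen. Complete separation of the groups in this direction was common. All ASA libraries lay below all DMSO libraries for 18.8% of genes and above them for 19.9%, and limma called 4.99% of genes lower at a Benjamini-Hochberg adjusted p under 0.05. Ranked by the gap between the lowest DMSO and the highest ASA library, a quantity of the same contrast, Lrrn4 was 6th, Rd3 12th and Lor 42nd. The order of levels in the DMSO libraries was Lrrn4, Lor, Rd3 by their means, and it held in each of the 6 libraries. The neighbours in that order overlapped only in part. Lor in DMSO replicate 1 (13.2 RPKM) was within the range of Rd3 over DMSO libraries (7.45 to 17.2), while the lowest Lrrn4 value (72.9) was above the highest Lor value (66.0). In the ASA libraries the ranges of Lrrn4 (1.26 to 11.04), Lor (1.20 to 4.17) and Rd3 (0.488 to 1.41) all overlapped, and in ASA replicate 2 Lrrn4 and Lor stood at 1.26 and 1.20.

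The 3 genes did not follow one profile over the DMSO libraries. DMSO replicate 3 was the highest of its group for Lrrn4, with the other DMSO libraries level. For Rd3 and Lor DMSO replicate 2 was the highest, then replicate 3, then replicate 1, an order that 24.8% of all tested genes shared. As a result Lrrn4 was 5.54 times Lor in DMSO replicate 1 and 5.18 times Lor in DMSO replicate 3, but 1.11 times Lor in DMSO replicate 2. With ASA replicate 1 was the highest for all 3 and replicate 2 the lowest, as replicate 2 was for 59.1% of tested genes. On the log2 scale the SD over ASA libraries was 1.61 for Lrrn4, 0.77 for Rd3 and 0.86 for Lor, and over DMSO libraries 0.54, 0.60 and 1.16. Of all tested genes 98.2% had a smaller ASA SD than Lrrn4 and 99.5% a smaller DMSO SD than Lor.

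The exons of Lrrn4 gave alike differences, each from 22 reads or more in every library. Lrrn4 has exons of 661, 205, 138 and 1201 bases in 5′ to 3′ order. The first held 23.5% to 28.1% of the gene's reads over the 6 libraries and the last 48.1% to 56.2%, with the highest share of the first and the lowest of the last in ASA replicate 2. Each exon alone gave a log2 difference between -4.34 and -4.05. In every library the 2 internal exons had higher RPKM than the outer 2, for instance 90.8 and 94.4 against 58.8 and 75.2 in DMSO replicate 1. The lower level with ASA was thus seen along the whole listed transcript and not at one end.

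Rd3 and Lor were less even. The Rd3 exons are 296 and 289 bases long, with 1645 bases between them. The second had 1.141 to 1.241 times the RPKM of the first in DMSO libraries. It had 0.786, 0.192 and 1.19 times the RPKM of the first in ASA replicates 1, 2 and 3, where the second exon held 33, 3 and 14 reads and the first 43, 16 and 12. Ratios from so few reads are imprecise. The second Lor exon (637 bases) had 2.17 to 2.30 times the RPKM of the first (713 bases) in DMSO libraries, a narrow range over levels that differed 5.01-fold. In ASA replicates 1, 2 and 3 the ratio was 2.85, 1.001 and 1.65, from 146, 57 and 106 reads in the first exon and 372, 51 and 156 in the second. The exons of Lor in this model are separated by only 48 bases. In DMSO replicate 3 the exons held 1140.5 and 2213.5 reads, so 1 read was divided between them, and these were the only 2 of the 48 member values that were not whole reads.

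**Figure D2:**
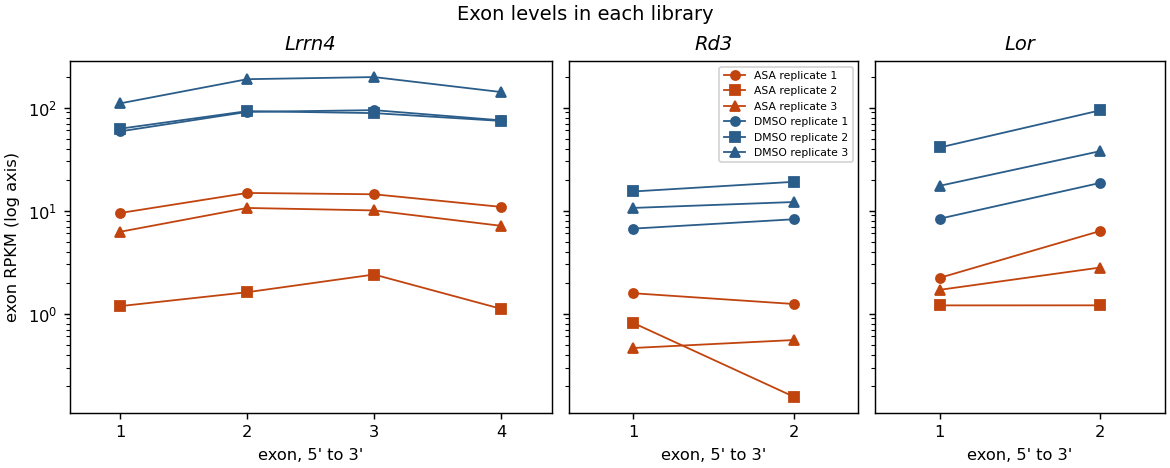
RPKM of each listed exon, on a log axis, against exon number in 5′ to 3′ order, with 1 line per library (blue DMSO, orange ASA). The Lrrn4 lines run close to parallel except that of ASA replicate 2, where exons 2 and 3 hold 22 reads each. The Lor lines of the DMSO libraries rise 2.17 to 2.30 times from exon 1 to exon 2, and the Rd3 exons of ASA replicate 2 hold 16 and 3 reads.

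Position on the chromosome was not used in choosing the members. Of the 30 listed genes nearest to them, 5 on each side of each, 28 had enough signal to be tested, and limma (log2 of RPKM + 0.1, Benjamini-Hochberg adjusted over 12502 genes) called 1 higher and 2 lower. Over all tested genes it called 11.2%, with 6.21% higher and 4.99% lower. The median log2 difference of the neighbours was -0.32, against -0.06 over all tested genes, and 17 of the 28 were below 0. No neighbour had a difference near that of its member. The 2 lowest were Nek2 at -1.64 and S100a4 at -1.34, and neither passed (adjusted p = 0.0709 and 0.13 by limma). Nearest here means nearest with a row. The neighbours reached 3984 kb from Lrrn4, 829 kb from Rd3 and 3617 kb from Lor, whose closest was Sprr1a at 683 kb.

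Lrrn4 lies tail to tail with Crls1, the cardiolipin synthase gene of the inner mitochondrial membrane, with 2373 bases between their 3′ ends. Crls1 fell from 55.0, 76.8 and 75.6 RPKM in DMSO replicates 1, 2 and 3 to 35.5, 36.2 and 35.3 in ASA replicates 1, 2 and 3, 1.92-fold (log2 -0.94 ± 0.19 SE, limma adjusted p = 0.0301). Its ASA libraries were level, in contrast to Lrrn4, whose ASA libraries differed by 8.75-fold. Whether counting used strand is not given in the sources used here. On the other side Fermt1, an integrin activator, was 35741 bases away with a log2 difference of -0.33 (adjusted p = 0.656). Beyond Crls1, the granule protein gene Chgb had 864 to 3499 RPKM in ASA and 2359 to 3010 in DMSO libraries (-0.33, adjusted p = 0.706), and Mcm8, a helicase gene of DNA repair, had -0.88 (adjusted p = 0.226). Shld1, Trmt6, Tmx4, Plcb1 and Plcb4 lay between -0.72 and 0.36, none called, and Ankef1 was too low to test.

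Around Rd3 limma called 0 of the 9 tested neighbours of 10 (4 at an unadjusted p under 0.05, and voom called 0). Over all 12502 tested genes 3753 had an unadjusted p under 0.05 in limma. Traf5, an adaptor of tumour necrosis factor receptors 10960 bases away, averaged 4.83 ± 2.16 RPKM with ASA and 3.79 ± 0.328 with DMSO (SD, n = 3), and the zinc exporter gene Slc30a1 26.2 ± 10.2 and 23.7 ± 4.59. These genes flank Rd3 directly in RefSeq's order on the assembly GRCr8 too. Rcor3, a corepressor, had a log2 difference of 0.63 (adjusted p = 0.0835), the mitotic kinase gene Nek2 -1.64, Hhat -0.92 (adjusted p = 0.277) and Lpgat1 -0.88 (adjusted p = 0.113), and Ints7 and Kcnh1 -0.56 and 0.19. The row AABR07022168.1 overlaps Slc30a1 on the other strand, so their reads may not be told apart. Sertad4 was too low to test.

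Lor has few listed genes near it in a cluster of epidermal genes. In RefSeq's order on GRCr8, 61 protein-coding genes lie between S100a6 and S100a11, among them the filaggrin gene Flg and the involucrin gene Ivl. Only 2 of the 61, Lor and Sprr1a, had a row in the table, in which every exon had over 10 reads in at least 4 libraries. The table is on Rnor_6.0 with an annotation not given, so a gene without a row may also be missing from that annotation. From S100a6 to Lor 8 genes had no row, S100a8 and S100a9 among them, and from Lor to Sprr1a 16 had none, mostly of the small proline-rich group such as Sprr2d and Sprr3. Sprr1a itself was low, at 1.37 ± 0.28 RPKM with ASA and 0.851 ± 0.136 with DMSO (SD, n = 3), log2 0.62 (adjusted p = 0.284). The S100 genes that border the cluster were expressed and did not move as one. S100a10, the partner of annexin A2, fell 1.89-fold (adjusted p = 0.0328), S100a1 rose 2.87-fold from 46.7 ± 13.4 to 132 ± 22.001 RPKM (adjusted p = 0.0189), and S100a6, S100a11, S100a13 and S100a16 had log2 differences of -0.25, 0.13, -0.06 and 0.19, none called. Them4 and C2cd4d, further along, had -0.35 and -0.64.

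**Figure D3:**
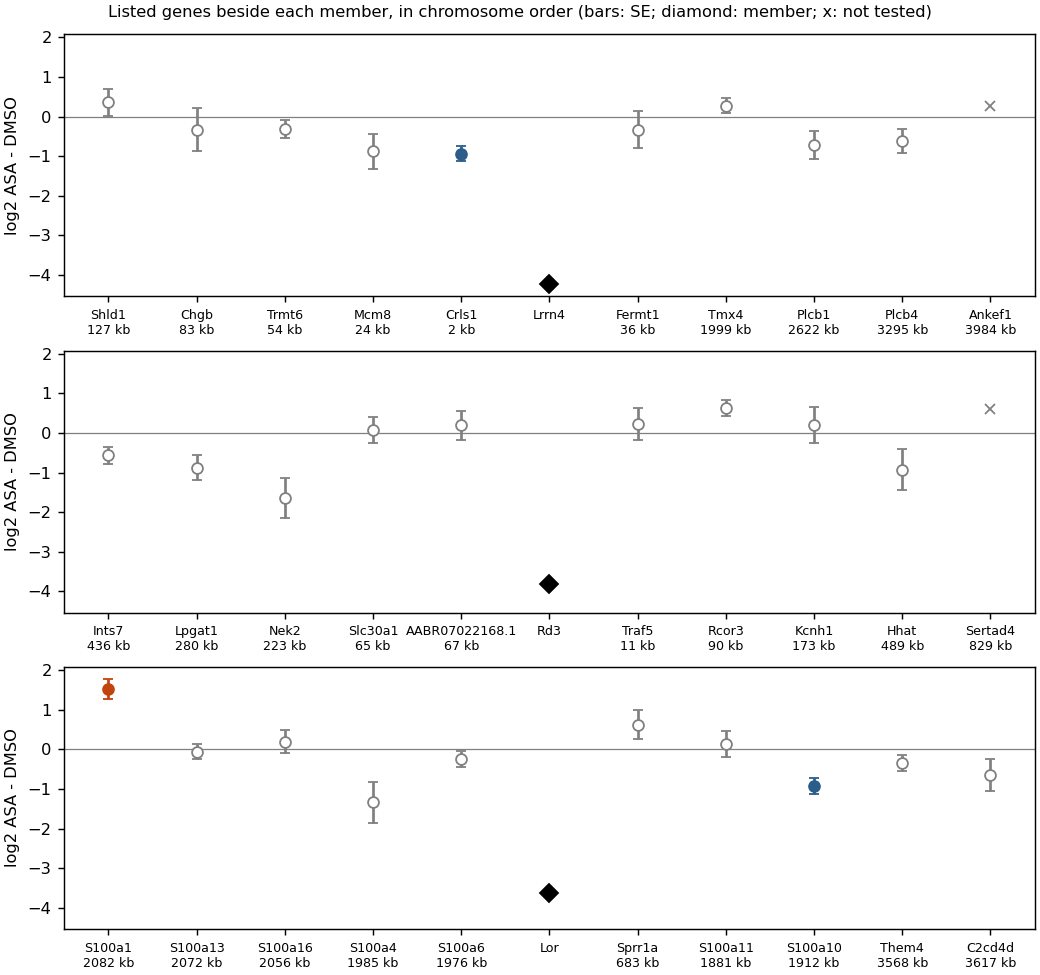
Log2 difference between ASA and DMSO of the 5 nearest listed genes on each side of Lrrn4 (top), Rd3 (middle) and Lor (bottom), in chromosome order, with the distance in kilobases under each name. Circles carry their SE, filled circles were called by limma, crosses were too low to test, and black diamonds are the members at -4.23, -3.81 and -3.62, below every neighbour.

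Genes of related function gave a mixed picture. Of 44 genes of the leucine-rich repeat neuronal family and related membrane proteins, 29 had rows and 20 were tested, with 3 lower and 1 higher in limma at an adjusted p under 0.05, and a median log2 difference of -0.26. Over all tested genes 4.99% were called lower and 6.21% higher, with a median of -0.06, which is the background for this list and those that follow. Lrrn3, the paralog of Lrrn4 and the more abundant gene, fell from 184 ± 15.2 to 74.4 ± 16.6 RPKM (SD, n = 3), 2.51-fold (adjusted p = 0.0165). It had 177, 202 and 174 RPKM in DMSO and 90.5, 57.3 and 75.4 in ASA replicates 1, 2 and 3, so its groups did not overlap either. The other family member tested, Lrrn1, was at -0.07 (adjusted p = 0.909). Lrtm2 fell 2.70-fold (adjusted p = 0.0211) and the synaptic gene Elfn1 2.59-fold (adjusted p = 0.0402), while Lrfn4, of the synaptic SALM family, rose 2.41-fold (adjusted p = 0.0243). Flrt3, Lrig1, Lrig2 and Lrfn3 had log2 differences of -0.88, -0.53, 0.71 and 0.65, none called. Lrrn4cl, named for its likeness to Lrrn4, had 0.60 (adjusted p = 0.412).

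The enzymes that RD3 binds in the retina could not be followed here. Every listed exon had over 10 reads in at least 4 libraries, so a gene without a row may still be expressed in fewer. Of 59 photoreceptor and guanylate cyclase genes 17 had rows, all tested, with a median of 0.09, and the retinal cyclase genes Gucy2d, Gucy2e and Gucy2f had no row. The receptor cyclases Npr1 and Npr2 had rows, with log2 differences of -1.17 (adjusted p = 0.142) and 0.23 (adjusted p = 0.439). The guanylate kinase gene Guk1 averaged 194 ± 74.2 RPKM with ASA and 152 ± 7.30 with DMSO (SD, n = 3), Impdh2 170 ± 74.2 and 144 ± 14.03, Gnb1 104 ± 35.7 and 79.3 ± 8.28, and Pde6d 44.2 ± 4.995 and 44.1 ± 3.93, none called. Only Unc119, a lipid-binding trafficking factor, passed, 2.004-fold higher (adjusted p = 0.0465), 1 of 17 against 6.21% of all tested genes. That call was lost with voom on the recovered reads, without the variance trend and with equal library medians.

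Of 72 genes of the cornified envelope and epidermal differentiation 23 had rows, all tested, with 2 lower (4.99% of all tested genes were), 1 higher (6.21%) and a median log2 difference of 0.20. Csta, an inhibitor of cysteine proteases that is itself cross-linked into the envelope, fell from 24.3 ± 5.69 to 4.24 ± 0.789 RPKM (SD, n = 3), 5.57-fold (limma adjusted p = 0.0119). Elf3, an epithelial ETS factor, fell 5.32-fold (adjusted p = 0.0151), with 11.2, 22.003 and 13.4 RPKM in DMSO replicates 1, 2 and 3, the same order as Lor. Aloxe3, a lipoxygenase of the skin barrier, rose 4.205-fold (adjusted p = 0.0328). The envelope scaffold gene Dsp had a log2 difference of 0.91 (adjusted p = 0.0657), Cstb 0.85 (adjusted p = 0.109), Klf4 0.66 (adjusted p = 0.244) and Jup 0.43 (adjusted p = 0.212). Tgm1, the transglutaminase that cross-links loricrin in skin, had 0.372 to 1.49 RPKM in ASA and 0.410 to 0.732 in DMSO libraries, with a log2 difference of 0.62 (adjusted p = 0.468). Of 8 tested S100 genes, all of them neighbours of Lor as above except S100g, 2 were lower and 1 higher, against the same 4.99% and 6.21%. S100g, the vitamin D-dependent calcium-binding protein, fell from 22.998, 74.0 and 38.1 RPKM in DMSO to 5.41, 5.65 and 7.68 in ASA replicates 1, 2 and 3, 6.43-fold (adjusted p = 0.0162), again with DMSO replicate 2 highest.

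**Figure D4:**
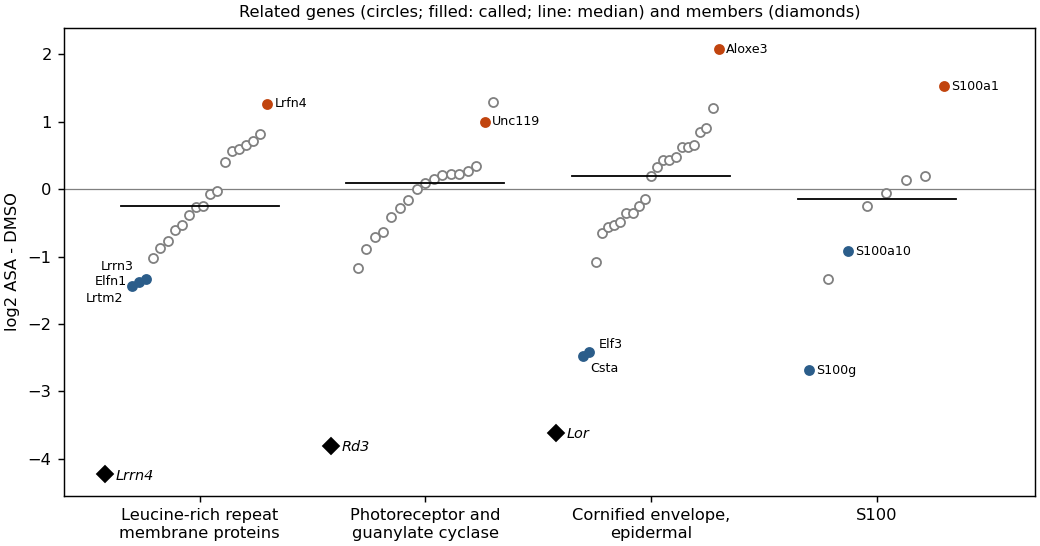
Log2 difference between ASA and DMSO of each tested gene (circles, sorted within a list) in the 4 lists of related genes, with a line at the list median, named filled circles for genes called by limma, and black diamonds for Lrrn4, Rd3 and Lor. List medians lie between -0.26 and 0.20, and the members at -4.23, -3.81 and -3.62 lie below every circle.

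All of these calls depended on which libraries were in the fit. Of the 11 genes called among the lists, and Crls1 beside Lrrn4, none was called without ASA replicate 3 or without DMSO replicate 3, where limma called no gene at all (2926 and 2345 genes at an unadjusted p under 0.05). Without DMSO replicate 1 Csta and S100g were still called (adjusted p = 0.0498 and 0.044), and the others were not. Without DMSO replicate 2 Crls1, Lrfn4, Lrtm2, Elfn1, Unc119 and Aloxe3 lost their calls. With each library left out in turn, the adjusted p ran from 0.0191 to 0.166 for Crls1, from 0.00906 to 0.102 for Lrrn3 and from 0.00711 to 0.0812 for Csta. With the median exon as the value of a gene Crls1 was 1.57-fold lower (adjusted p = 0.276) and Elfn1 2.59-fold (adjusted p = 0.0524), neither called. Cga lost its call without DMSO replicate 1 as well, and Pcsk2 without DMSO replicate 1 or 2.

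ASA replicate 2 bore on genes that were not called. Without it limma called 2617 genes, among them Rcor3, Guk1, Dsp, Klf4, Itgb4, Krt7, Krt8 and Pdpn. The log2 difference of Chgb, whose 864 RPKM was in that library, turned from -0.33 to 0.34, and those of Fermt1, S100a11 and Impdh2 turned sign too, none called. For Flrt3, at 4.73 RPKM there and 21.3 to 27.1 in the other ASA libraries, it went from -0.88 to -0.11, and for Cd14 from -1.41 to -0.73.

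Of genes that define the tissues in which the members are best known, photoreceptor and keratinocyte markers were mostly without rows or low. Some mesothelial markers were abundant and others had no row or were low. Of 16 photoreceptor markers 3 had rows, and their summed level was 8.98 to 11.97 RPKM in ASA and 4.97 to 7.78 in DMSO libraries. Crx, Nrl, Sag and Pde6b were among those with none. Of 16 keratinocyte markers 8 had rows, summing to 49.5 to 118 RPKM in ASA and 81.6 to 96.2 in DMSO libraries, mainly through the integrin genes Itga6 and Itgb4, and Krt5, Krt1, Ivl and Flg had no row. In neither list did limma call a gene, and voom called 0. In limma 2 of the 8 keratinocyte and 1 of the 3 photoreceptor markers had an unadjusted p under 0.05, against 3753 of all 12502 genes. Of 18 mesothelial markers 10 had rows, summing to 798 to 1248 RPKM in ASA and 1437 to 1617 in DMSO libraries. Most of that was the keratins Krt7 and Krt8, while Wt1 and Calb2 had no row. Msln, the mesothelin gene, rose 1.85-fold from 59.6 ± 7.49 to 110 ± 9.55 RPKM (SD, n = 3; limma adjusted p = 0.0275). Of the 10 markers 6 had a log2 difference below 0. Beside Msln, those above 0 were Pdpn at 0.69, Upk3b at 0.98 and Lrrn4cl at 0.60, none called (limma adjusted p = 0.0765, 0.139 and 0.412). Krt19 fell 8.19-fold (adjusted p = 0.0383), with 1.95, 15.6 and 7.61 RPKM in DMSO replicates 1, 2 and 3. It was 5.18-fold lower, with no call, without DMSO replicate 2, and 14.3-fold lower without DMSO replicate 1. Both keratin 19 and mesothelin lost their calls in 4 of the 6 fits with a library left out, Krt19 also with voom on the recovered reads (adjusted p = 0.0518) and Msln with the median exon as gene value (adjusted p = 0.0574).

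Summed levels of markers of other cell types that the culture could hold did not overlap between the groups, as was so of 18.8% (ASA below) and 19.9% (ASA above) of single tested genes. Of 14 fibroblast and endothelial markers 3 had rows, summing to 2143 to 3284 RPKM in ASA and 1104 to 1166 in DMSO libraries, almost all of it Dcn (decorin), with Col1a1, Pdgfra and Pecam1 without rows. Dcn rose 2.49-fold (limma adjusted p = 0.0213) and the pericyte and fibroblast receptor gene Pdgfrb 3.89-fold (adjusted p = 0.0372), from levels of 0.878 to 2.39 RPKM in DMSO libraries. The remaining marker, Lum, did not rise, with 49.0 RPKM in ASA and 54.5 in DMSO libraries on average. Its log2 difference was -0.23 (limma adjusted p = 0.734), not called. Of 12 leukocyte markers 2 had rows, Cd3e and Cd14, at 12.02 to 30.2 RPKM summed in ASA and 39.6 to 57.5 in DMSO libraries, and Ptprc had none. Cd3e fell 2.80-fold (limma adjusted p = 0.0209). These calls held in 2 of the 6 fits with a library left out for Dcn and Cd3e and in 1 for Pdgfrb, which was also lost with the median exon as gene value (adjusted p = 0.0631). Of 12 folliculostellate and stem cell markers 4 had rows, led by Prrx1 and Aldoc, at 71.0 to 87.7 and 120 to 169 RPKM summed in ASA and DMSO libraries, with Sox2 and S100b without rows. Of the 3 tested limma called 0. Prrx1, Aldoc and Gfra2 had log2 differences of -0.87, -0.98 and 0.50 (limma adjusted p = 0.113, 0.189 and 0.53). Aldoc alone overlapped between the groups, at 21.6 to 43.5 RPKM in ASA and 31.5 to 105 in DMSO libraries. The part of these cell types in the levels of Lrrn4, Rd3 and Lor was not tested.

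Likeness over the 6 libraries was measured as Pearson's r of log2(RPKM + 0.1) among 11052 genes that average 1 RPKM or more and have a true gene name. The 6 points share their library depths and the split into 2 groups, so high values are common, and they are given with no test. The genes most like Lrrn4 were Ndufs4 (r = 0.999), Arhgef28 (0.998), Papss1, Fgd4 and the mitochondrially encoded Mt-co2 (0.995), and 404 genes were over 0.95. These genes had small differences, for instance 241 ± 14.1 against 146 ± 25.5 RPKM (SD, n = 3) for Ndufs4, a subunit of respiratory complex I. Among those most like Rd3 were the nodal antagonist gene Lefty2 (0.998), Prodh1, Gtf2f2 and the glycolytic gene Pgk1 (0.997), with 204 genes over 0.95. Lefty2 had the largest log2 difference of the genes alike that are named here, 4.71 ± 1.03 against 0.945 ± 0.279 RPKM. For Lor they included the acetyl-CoA synthetase gene Acss2 (0.997), Ccdc117, Nudt14 and Fez1 (0.991), with 162 over 0.95. Among themselves Rd3 and Lor had an r of 0.979, Lrrn4 and Rd3 0.930 and Lrrn4 and Lor 0.914, and the low level with ASA for which all 3 were chosen enters each of these values.

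**Figure D5:**
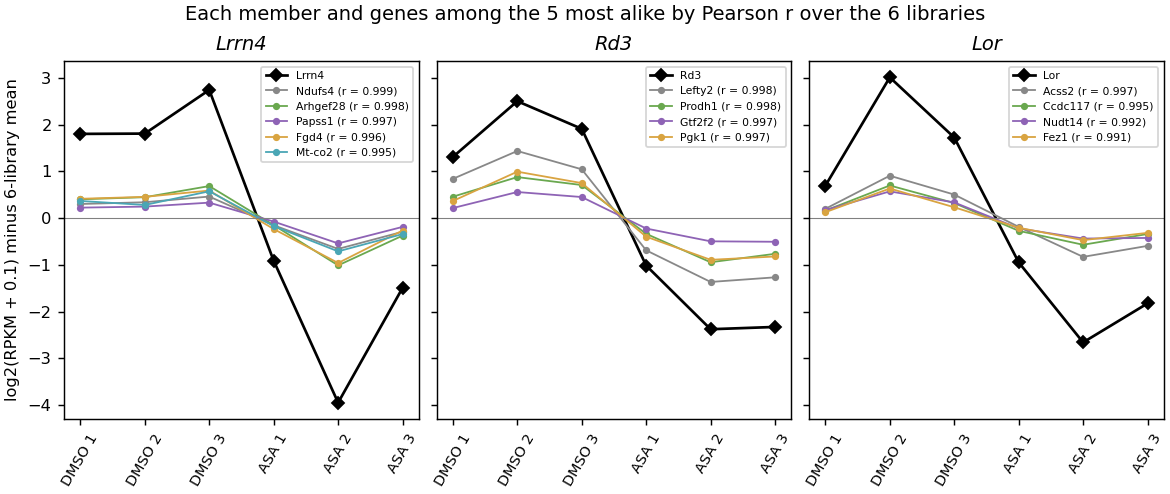
Log2(RPKM + 0.1) minus the 6-library mean in each library for Lrrn4, Rd3 and Lor (black) and for genes among the 5 most alike by Pearson's r (coloured). Lines join the values of one gene, and the members span a far wider range than the genes that share their shape.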

How the data were processed

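The deposited table gives exon values as log2 RPKM, with a column for each library. Per the submitters' processing notes, Trim Galore 0.4.1, cutadapt 1.14, TopHat2 2.1.0, Bowtie2, edgeR 3.26.8 and the build Rnor_6.0 were used by the authors. How reads were counted, with or without strand, and on which annotation is not given in the sources used here. Replicate numbers follow the deposited order.

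The log was undone, the constant that the authors' log2 values carry (0.00292 reads per 1000000) was removed and reads were recovered. Of values 95.7% to 96.8% per library were whole within 0.02 read. Gene RPKM is the sum of reads over listed exons per kilobase. ASA and DMSO were compared with limma 3.58.1 (trend, two-sided, Benjamini-Hochberg) on log2(RPKM + 0.1) for 12502 genes (mean RPKM of 0.5 or more). The fit was tested on simulated data. A symbol on several identifiers (29 symbols) took the one with the highest mean. Named from each list were called genes and up to 4 abundant others. Lrrn1, Lrrn4cl, Npr1, Npr2, Tgm1 and Sprr1a were added for their role. Of the 5 genes most alike to each member, some are not reported here. The members and lists were chosen with earlier results of these data known.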

Additional observations from a re-analysis of the deposited data

How the results depend on the processing

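The log2 differences of Lrrn4, Rd3 and Lor were negative under all 10 alternatives tried for each. With each library left out in turn they ran from -4.83 to -3.32 for Lrrn4, from -4.26 to -3.51 for Rd3 and from -4.17 to -3.02 for Lor, and with a pseudocount of 1 Rd3 was at -2.82. Calls were also counted with other filters on mean RPKM, without the variance trend and with voom. Over these and the former alternatives 0 to 2617 genes were called, with 0 to 5 leucine-rich repeat genes and 0 to 3 photoreceptor and guanylate cyclase genes. Of epidermal genes 0 to 6 were called, of S100 genes 0 to 4 and of neighbours 0 to 5. The single photoreceptor and guanylate cyclase call (Unc119) became 0 with equal library medians, without the variance trend and with voom on recovered reads, an alternative chosen after seeing the data. In each of these fits 3 of the 17 genes had an unadjusted p under 0.05, against 3674 to 4010 of all 12502 genes. The cause of this loss was not tested. No paired analysis was possible because the labels give no replicate numbers or pairing. Depth limits Rd3 most, with 19 to 76 reads in the ASA libraries.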
